A study of Homo sapiens with 6 samples.

Results

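The genes described here are 44 components of the machinery that degrades mRNA and of the microRNA pathway, taken from a named list and matched by symbol to the Ensembl identifiers of the count files. All 44 were among the 58051 genes in the files and among the 20536 genes tested, those whose 6 libraries held 10 counts or more together. RNA was sequenced from A172, an established human glioblastoma cell line, after stable lentiviral transduction with a plasmid for RBFOX1 or, as the control, for GFP. There were 3 libraries of each, described in the study's methods as biological replicates. The cells of both groups therefore carried an integrated expression construct of the pLX317 type and had been exposed to virus packaged in HEK293T cells, a human embryonic kidney line. Neither the labels nor the methods say whether each line was a clone or a pool, or whether the replicates were separate transductions, so the p-values measure the spread between these libraries. The comparison asks whether the genes that set mRNA stability were themselves expressed differently in RBFOX1 and GFP cells.

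Most cytoplasmic mRNAs are degraded after their poly(A) tail is shortened, first by the PAN2-PAN3 complex and then by the CCR4-NOT complex. Removal of the 5′ cap by DCP2 then exposes the body of the message to the exonuclease XRN1. Nonsense-mediated decay reaches the same enzymes from a premature stop codon, and a microRNA reaches them through an Argonaute protein and its TNRC6 partner, which binds CCR4-NOT and PAN2-PAN3. RBFOX1 is an RNA-binding protein, best known in neurons, that recognises TGCATG (in DNA letters) and acts on splicing and, in 3′ UTRs, on mRNA levels.

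Each library held between 7433414 and 23249221 counts on genes. RBFOX1 itself had 4, 0 and 1 counts in the GFP libraries and 10276, 16467 and 21451 in the RBFOX1 libraries. In both groups replicate 1 stood somewhat apart. The log2 ratios of genes between GFP replicate 1 and the other GFP libraries had an SD of 0.204 and 0.192, against 0.157 between GFP replicates 2 and 3. For RBFOX1 replicate 1 the SD was 0.194 and 0.191, against 0.156 between RBFOX1 replicates 2 and 3. Over the members alone the SD was 0.213 and 0.204 for GFP replicate 1, against 0.159 between the other GFP libraries. For RBFOX1 replicate 1 it was 0.152 and 0.114, against 0.111. GFP replicate 1 was the deepest library and RBFOX1 replicate 1 the shallowest. Of 12 proliferation genes, 11 were higher in RBFOX1 cells, with a summed normalised count of 9847 to 10020 in the GFP libraries and 21920 to 23830 in the RBFOX1 libraries. Of 10 interferon-stimulated genes, 7 were higher and 2 lower, with sums of 4149 to 4638 and 5593 to 8828. Among 8 markers used for glioma lines, VIM and CD44 were abundant, while the astrocyte genes GFAP and S100B did not exceed 4 counts in any library. Of the 7 tested, SOX2, NES and PDGFRB were higher (log2 fold changes 2.53, 0.60 and 0.19) and VIM and CD44 lower (-0.65 and -0.90). The sums, made up mostly of VIM and CD44, were 75570 to 76840 in GFP and 51050 to 51640 in RBFOX1 libraries. The summed count of 10 markers of other cell types was 33.0 to 46.6 in GFP and 192 to 209 in RBFOX1 libraries, 5 of the 8 tested being higher, and ALB was at 0 throughout. The part of these lists in the differences below was not tested. In bulk RNA, fewer cells of a type and less RNA per cell cannot be told apart.

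Of the 44 members, 18 were higher and 7 lower in RBFOX1 cells, and 19 did not pass the threshold, an adjusted p under 0.05 in edgeR's quasi-likelihood test. The members called made up 56.8%, against 46.7% of all genes tested and 63.1% of the 11367 genes whose mean count lay within the members' range. Higher calls were 40.9% of members, against 23.7% of all genes and 30.4% of genes in the same range of counts. Lower calls were 15.9% of members, against 22.9% and 32.7%. The changes were small. The median log2 fold change was 0.10 over the members and 0.01 over all genes, and the median absolute log2 fold change was 0.22, against 0.38 over all genes and 0.29 in the same range of counts. Only 4 members passed the threshold and differed by 0.5 or more on the log2 scale in either direction, and all 4 rose. This was 9.09% of members, against 26.2% of all genes and 28.9% in the same range. Without GFP replicate 1, CNOT3 and CNOT4 of these 4 kept their calls but were under 0.5, at 0.35 and 0.46. CNOT3 lay on the cut itself, at 0.5005, and was also under it in other runs. It was at 0.478 with upper quartile scaling and 0.438 without RBFOX1 replicate 1, but at 0.627 without GFP replicate 3. PAN2, at 0.492, lay just under the cut and passed it in some runs, as with total counts only (0.543). In 28 members (63.6%) the groups did not overlap, 19 with RBFOX1 above GFP and 9 below, against 53.4% of all genes and 68.1% in the same range.

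**Figure D1:**
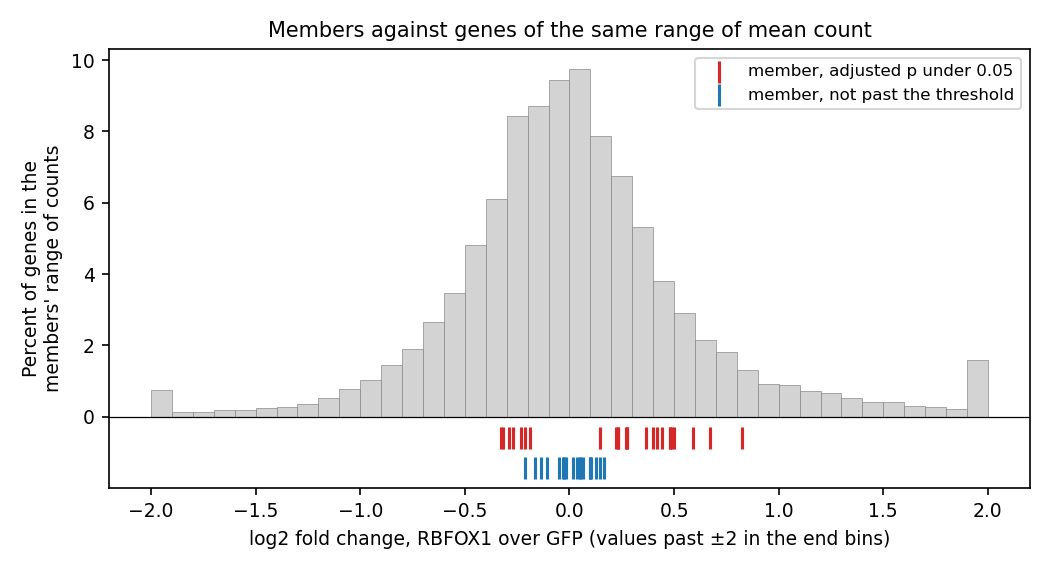
Distribution of the log2 fold change of RBFOX1 over GFP for the 11367 genes in the members' range of mean count (bars, percent of genes, with values past ±2 in the end bins) and the 44 members as marks below, red where the adjusted p was under 0.05. The members lie between -0.33 and 0.83, inside the bulk of the distribution.

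With each library left out in turn, 15 of the higher and 2 of the lower members kept their call in all 6 fits, and no called member changed sign in any fit. The members called lower numbered 3 without RBFOX1 replicate 2 and 3 without RBFOX1 replicate 3. Without GFP replicate 1, 26 members were called, and without RBFOX1 replicate 1, 25 were called, of which 24 in each case were called in the full data.

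**Figure D2:**
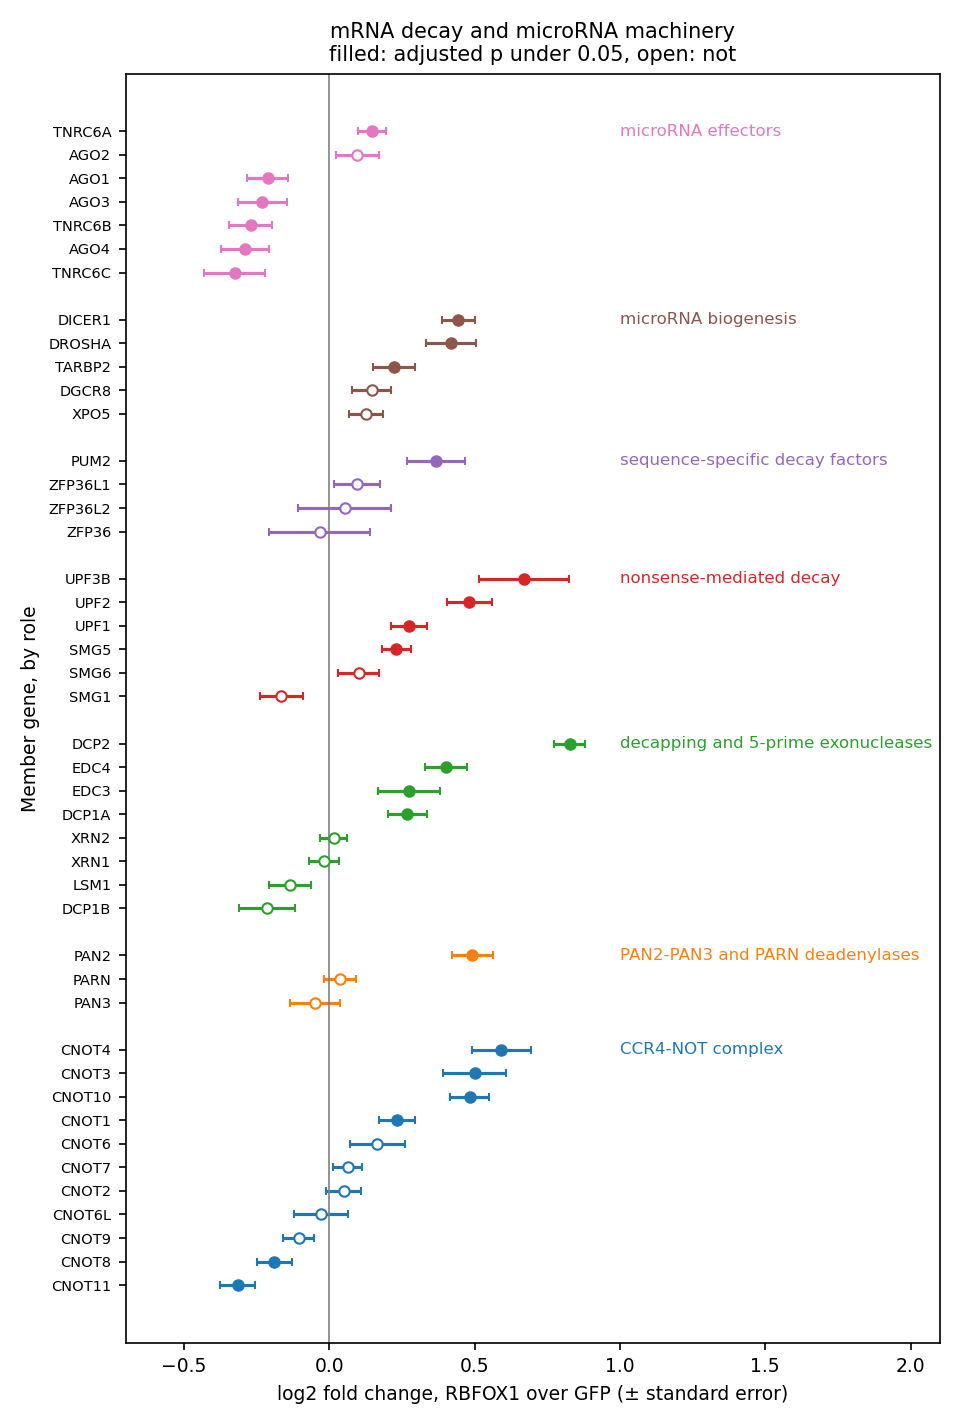
Log2 fold change of RBFOX1 over GFP with its standard error for each of the 44 members, grouped by role and with filled points where the adjusted p was under 0.05. All 5 biogenesis genes lie above 0, while 5 of the 7 effector genes lie below it.

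The CCR4-NOT complex, the main deadenylase of the cytoplasm, did not move as a unit. Of its 11 genes, 4 rose, 2 fell and 5 did not pass the threshold, with a median log2 fold change of 0.06. Of all genes in the members' range of counts, 30.4% were higher and 32.7% lower. CNOT4, a RING-domain ubiquitin ligase only loosely attached to the human complex, had normalised counts of 168, 213 and 217 in the GFP libraries and 303, 274 and 308 in the RBFOX1 libraries. Normalised counts are counts scaled to a library of average size, at which 3 reads are worth 1.73 to 5.16 depending on the library. The groups did not overlap, and the log2 fold change was 0.59 (SE, the standard error, 0.102, adjusted p = 6.788e-05). Over the alternative runs it ranged from 0.46, without GFP replicate 1, to 0.66. CNOT4 (ENSG00000080802) lies on chromosome 7 of GRCh38 from 135361795 to 135510145 on the minus strand. CNOT3, a subunit of the NOT module, had 274, 342 and 391 normalised counts in GFP cells and 528, 416 and 471 in RBFOX1 cells. Every RBFOX1 library again lay above every GFP library, the lowest of the former close to the highest of the latter, with a log2 fold change of 0.50 (SE 0.108, adjusted p = 0.00069). This ranged from 0.35, without GFP replicate 1, to 0.63. CNOT3 (ENSG00000088038) lies on chromosome 19 from 54137749 to 54155681 on the plus strand.

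The other subunits that rose were CNOT10, by 0.48 on the log2 scale (adjusted p = 5.915e-06), and the scaffold CNOT1, by 0.23 (adjusted p = 0.00403). Without GFP replicate 1 the log2 fold change of CNOT1 was 0.15 (adjusted p = 0.0054). CNOT11, which pairs with CNOT10 in a module of the complex, went the other way, with a log2 fold change of -0.32 (adjusted p = 0.000232). CNOT10 had 700, 652 and 619 normalised counts in GFP libraries and 910, 994 and 863 in RBFOX1 libraries, whereas CNOT11 had 1019, 1099 and 1075 in GFP libraries and 793, 906 and 851 in RBFOX1 libraries. Neither gene's groups overlapped, so the partners of this module were separated in opposite directions in all 6 libraries.

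The catalytic subunits moved little. CNOT8, a nuclease of the CAF1 family, fell by 0.19 on the log2 scale (adjusted p = 0.0118), a call lost without RBFOX1 replicate 2 (adjusted p = 0.0533) and with scaling by total counts alone (adjusted p = 0.0615). Its paralog CNOT7 had a log2 fold change of 0.06 (adjusted p = 0.319). Per length, in RPKM, CNOT7 made up 44.2% ± 1.27 (SD, n = 3) of this pair in GFP cells and 48.5% ± 0.50 in RBFOX1 cells. The nucleases of the CCR4 family, CNOT6 and CNOT6L, had log2 fold changes of 0.17 and -0.03, and CNOT2 and CNOT9 had 0.05 and -0.11. None of these 4 passed the threshold.

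Among the other deadenylases, PAN2 rose while its partner did not pass the test. PAN2, the catalytic subunit of PAN2-PAN3, had 474, 466 and 410 normalised counts in GFP libraries and 650, 651 and 609 in RBFOX1 libraries. The groups were well separated, with a log2 fold change of 0.49 (SE 0.0716, adjusted p = 8.77e-06). PAN2 (ENSG00000135473) lies on chromosome 12 from 56316223 to 56334053 on the minus strand. PAN3, the subunit that links PAN2 to the poly(A)-binding and TNRC6 proteins, had 370, 454 and 441 normalised counts in GFP libraries and 394, 432 and 384 in RBFOX1 libraries, which overlapped, with a log2 fold change of -0.05 (adjusted p = 0.682). The poly(A)-specific ribonuclease PARN had a log2 fold change of 0.04 (adjusted p = 0.625).

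DCP2, the enzyme that removes the cap, changed more than any other member. Its normalised counts were 1034, 1033 and 1111 in GFP cells and 1844, 1919 and 1866 in RBFOX1 cells, a 1.77-fold rise of the mean. The log2 fold change was 0.83 (SE 0.0527, adjusted p = 7.318e-11), and it lay between 0.80 and 0.88 under every alternative run. DCP2 (ENSG00000172795) lies on chromosome 5 from 112976702 to 113022195 on the plus strand. Its annotated 3′ UTR of 8711 nucleotides holds 5 copies of TGCATG, at 577, 3198, 4304, 4728 and 8555 nucleotides after the stop codon. They are shown because DCP2 had both the highest log2 fold change of the members and several copies of the motif, which is in capitals, read 5′ to 3′ from GRCh38 on the strand of the gene.
DCP2 chr5:113014049-113014078: tggaatataatgTGCATGtccaaaatgaac
DCP2 chr5:113016670-113016699: ttaaggtctgagTGCATGtgtgcattaaaa
DCP2 chr5:113017776-113017805: aaatgtgatcatTGCATGgcctaagtgtag
DCP2 chr5:113018200-113018229: aagttactcttaTGCATGggagtgggctta
DCP2 chr5:113022027-113022056: ttgatatttgccTGCATGtatatcacagtt

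Of the other 7 genes of decapping and 5′ exonucleolysis, EDC4, DCP1A and EDC3 passed the test as higher, EDC3 on a call that rested on single libraries, and DCP1B, LSM1, XRN1 and XRN2 did not pass. Calls in either direction made up 63.1% of all genes in the members' range of counts. EDC4, the scaffold that joins DCP1 and DCP2, had a log2 fold change of 0.40 (adjusted p = 0.000115), with 447, 389 and 411 normalised counts in GFP libraries and 521, 559 and 570 in RBFOX1 libraries. A non-coding gene on the same strand covers 21.3% of the exonic length of EDC4, so that reads there could not be assigned to either. DCP1A, the activating partner of DCP2, had 0.27 (adjusted p = 0.00243), and EDC3, another enhancer of decapping, also had 0.27 (adjusted p = 0.0439). The EDC3 difference rested on GFP replicate 1, at 262 normalised counts against 388 and 354 in the other GFP libraries and 392 to 402 in RBFOX1 libraries. Without it the log2 fold change was 0.10 (adjusted p = 0.307), and the call was also lost without RBFOX1 replicate 1, 2 or 3 (adjusted p of 0.0864, 0.0895 and 0.122). DESeq2 (adjusted p = 0.1) and scaling by the upper quartile (adjusted p = 0.0619) did not call it either.

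DCP1B, the paralog of DCP1A, had a log2 fold change of -0.21 (adjusted p = 0.0785). LSM1, the subunit that defines the cytoplasmic LSM ring on shortened tails, had -0.13 (adjusted p = 0.143). XRN1, which degrades decapped mRNA in the cytoplasm, had 1657, 1733 and 1696 normalised counts in GFP libraries and 1653, 1746 and 1617 in RBFOX1 libraries. XRN2, its nuclear relative, had 2908, 2871 and 2816 against 2832, 2917 and 2933. The groups overlapped in both genes, although 2 of 3 RBFOX1 libraries lay above every GFP library for XRN2, with log2 fold changes of -0.02 and 0.01 and standard errors of 0.0512 and 0.0463.

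Of 6 genes of nonsense-mediated decay, 4 rose and none fell by the test, with a median log2 fold change of 0.25. In the members' range of counts, 30.4% of all genes were higher and 32.7% lower, and this group was not tested as a set. UPF3B, which bridges the exon junction complex and the UPF proteins, was among the least abundant members, with 139, 58 and 114 counts in GFP libraries and 71, 130 and 168 in RBFOX1 libraries. After normalisation these were 80.04, 64.2 and 114 against 122, 137 and 146, and the GFP libraries varied widely. The log2 fold change was 0.67 (SE 0.155, adjusted p = 0.00125), and it ranged from 0.53 to 0.88 over the alternatives. UPF3B (ENSG00000125351) lies on chromosome X from 119834022 to 119852998 on the minus strand. UPF2, the adaptor between UPF3B and the helicase, rose by 0.48 on the log2 scale (adjusted p = 2.594e-05), from 582, 706 and 677 normalised counts to 814, 927 and 964. UPF1, the helicase itself, rose by 0.27 (adjusted p = 0.00119). SMG5, an adaptor that binds phosphorylated UPF1, rose by 0.23 (adjusted p = 0.000625).

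SMG6, the endonuclease of this pathway, had a log2 fold change of 0.10 (adjusted p = 0.259). SMG1, the kinase that phosphorylates UPF1, had -0.16 (adjusted p = 0.0732), a value that is uncertain because near-identical copies of the gene can share its reads.

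The sequence-specific factors, which recruit deadenylases to particular 3′ UTRs, gave 1 gene past the threshold among 4. In the members' range of counts, 63.1% of all genes passed it. PUM2, a Pumilio protein that binds a UGUA-type element, had 1079, 1575 and 1547 normalised counts in GFP libraries and 1691, 1937 and 1731 in RBFOX1 libraries. The groups did not overlap, but GFP replicate 1 lay far below the other GFP libraries. The log2 fold change was 0.37 (SE 0.0991, adjusted p = 0.00446), and without that library it was 0.20 (adjusted p = 0.00207). DESeq2 did not call it (adjusted p = 0.107). PUM2 (ENSG00000055917) lies on chromosome 2 from 20248691 to 20352234 on the minus strand. ZFP36, ZFP36L1 and ZFP36L2, which bind AU-rich elements, had log2 fold changes of -0.03, 0.10 and 0.05, none past the threshold. ZFP36 and ZFP36L2 were scarce, at 42.0 to 57.6 and 49.5 to 68.8 normalised counts, and standard errors of 0.175 and 0.159 leave room for changes of the size seen in other members. Per length, ZFP36L1 made up 80.4% ± 1.37 (SD, n = 3) of the family in GFP cells and 81.6% ± 0.734 in RBFOX1 cells.

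**Figure D3:**
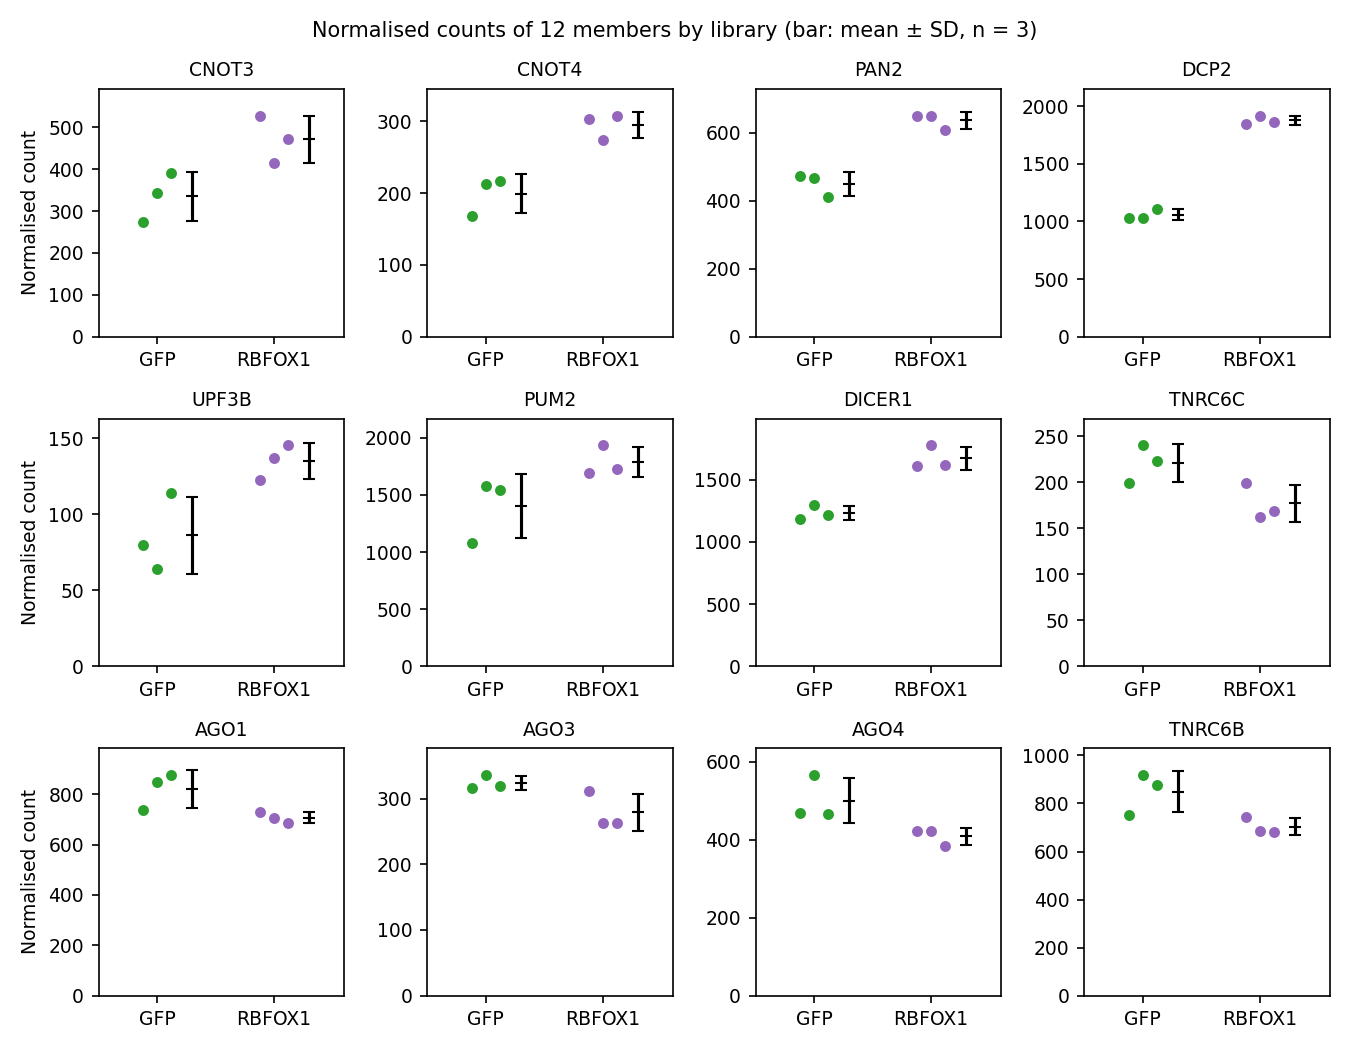
Normalised counts of 12 members in each GFP and RBFOX1 library (points), with the mean ± SD of 3 libraries beside them and each axis starting at 0. DCP2, PAN2 and DICER1 show the widest separation relative to their spread, and the 2 groups of TNRC6C overlap.

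Of the 5 genes that make microRNAs, 3 rose, none fell and 2 did not pass the threshold, with a median log2 fold change of 0.22. Of the 7 that act with the finished microRNA, 5 fell, 1 rose and 1 did not pass, with a median of -0.23. Among all genes in the members' range of counts, 30.4% were higher and 32.7% lower. The difference between these roles was not tested, and of the 5 effector calls that were lower only that of TNRC6B held with each library left out in turn. In each library relative to the GFP mean, the biogenesis genes had medians of -0.03, 0.02 and -0.02 in GFP and 0.26, 0.21 and 0.23 in RBFOX1 libraries. The effectors had medians of -0.14, 0.12 and 0.02 in GFP and -0.14, -0.24 and -0.30 in RBFOX1 libraries. RBFOX1 replicate 1 thus lay level with GFP replicate 1 for the effectors.

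**Figure D4:**
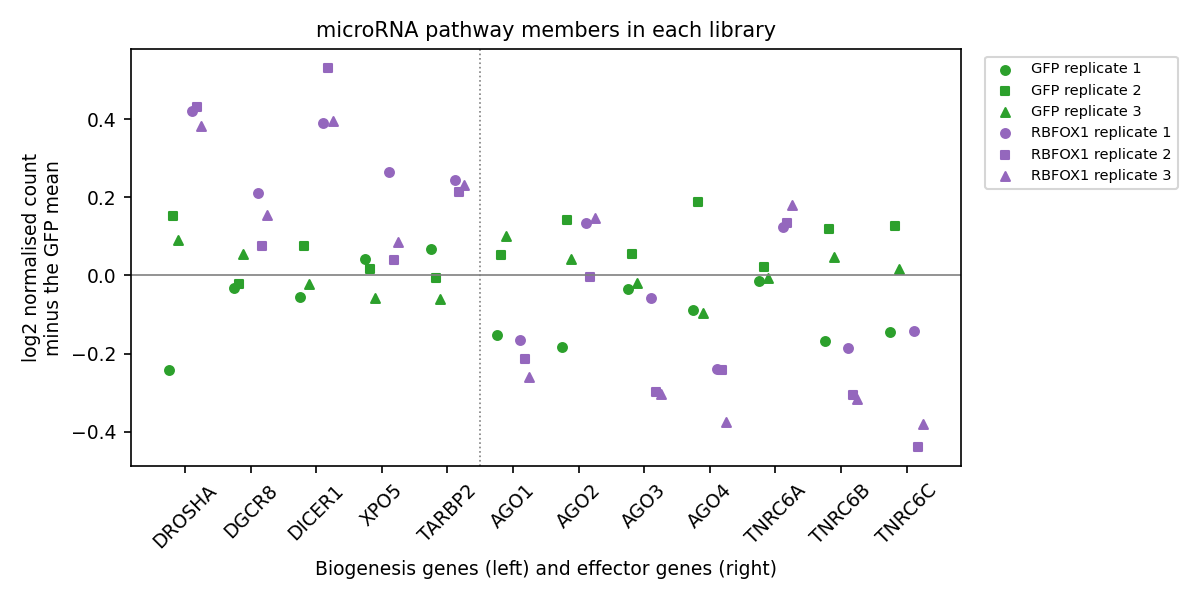
Log2 normalised count of each microRNA pathway member in each library after subtraction of the GFP mean, with biogenesis genes on the left and effector genes on the right. For DROSHA, DGCR8, DICER1 and TARBP2 every RBFOX1 library lies above every GFP library, and for AGO1, AGO3, AGO4 and TNRC6B every RBFOX1 library lies below.

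DICER1, the nuclease that cuts the precursor hairpin into the mature duplex, had 1186, 1297 and 1213 normalised counts in GFP libraries and 1614, 1779 and 1620 in RBFOX1 libraries. The groups were clearly apart, with a log2 fold change of 0.44 (SE 0.0568, adjusted p = 1.734e-06) that ranged from 0.40 to 0.50 over the alternatives. DICER1 (ENSG00000100697) lies on chromosome 14 from 95086228 to 95158010 on the minus strand. Its 3′ UTR of 4270 nucleotides holds 2 copies of TGCATG, 1140 and 1379 nucleotides after the stop codon, given here as a second gene that rose and has more than 1 copy.
DICER1 chr14:95089341-95089370: ttttcataatgtTGCATGcatatttcacct
DICER1 chr14:95089102-95089131: cttcttttctttTGCATGcatttttcccct

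DROSHA, which releases the hairpin from the primary transcript in the nucleus, had 382, 502 and 482 normalised counts in GFP libraries and 606, 610 and 589 in RBFOX1 libraries, with a log2 fold change of 0.42 (adjusted p = 0.000428). DGCR8, the RNA-binding partner of DROSHA, had 0.15 (adjusted p = 0.08). Exportin 5 (XPO5), which carries the hairpin to the cytoplasm, had 0.13 (adjusted p = 0.0816). TARBP2, a double-stranded RNA-binding partner of DICER1, rose by 0.22 on the log2 scale (adjusted p = 0.0147), a call lost without GFP replicate 3 (adjusted p = 0.0667) and not made by DESeq2 (adjusted p = 0.0639).

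Of the Argonaute genes, whose proteins hold the microRNA, AGO1, AGO3 and AGO4 fell and AGO2, the member that can cleave its target, did not pass the test. AGO4 had 468, 567 and 466 normalised counts in GFP libraries and 422, 421 and 384 in RBFOX1 libraries, with a log2 fold change of -0.29 (SE 0.0831, adjusted p = 0.00701). AGO1 had 737, 850 and 878 against 731, 707 and 684, with a log2 fold change of -0.21 (adjusted p = 0.0167). AGO3 had 316, 337 and 320 against 311, 263 and 262, with a log2 fold change of -0.23 (adjusted p = 0.0305). In all 3 genes the groups did not overlap, but the gap was narrow, the highest RBFOX1 library lying close to the lowest GFP library in AGO1 and AGO3. AGO2 had 814, 1019 and 950 against 1013, 921 and 1022, which overlapped, with a log2 fold change of 0.10 (adjusted p = 0.317). The 3 genes that fell lie side by side on the plus strand of chromosome 1, AGO4 from 35808016 to 35857890, AGO1 from 35869808 to 35930532 and AGO3 from 35930718 to 36072500.

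These calls changed with single libraries. That of AGO4 was lost without RBFOX1 replicate 3 (adjusted p = 0.0637). AGO1 was not called without GFP replicate 3 or without RBFOX1 replicate 2 or 3 (adjusted p of 0.0984, 0.0539 and 0.0942). AGO3 was not called without GFP replicate 2 or 3 or without RBFOX1 replicate 2 or 3 (adjusted p of 0.0782, 0.0557, 0.135 and 0.16), nor by DESeq2 (adjusted p = 0.139). Scaling by total counts alone, which moves the median log2 fold change of all genes from 0.01 to 0.06, also left AGO1 and AGO3 under the threshold (adjusted p of 0.0672 and 0.0961).

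The TNRC6 genes encode the GW182 proteins that connect an Argonaute to the deadenylases. TNRC6C had 199, 240 and 223 normalised counts in GFP libraries and 200, 162 and 169 in RBFOX1 libraries. RBFOX1 replicate 1 lay at the level of GFP replicate 1, so the groups overlapped. The log2 fold change was -0.33 (SE 0.104, adjusted p = 0.0141). The call was lost without GFP replicate 2 and without RBFOX1 replicate 2 or 3 (adjusted p of 0.0555, 0.0864 and 0.0734), and DESeq2 did not make it (adjusted p = 0.0721). TNRC6C (ENSG00000078687) lies on chromosome 17 from 77958703 to 78108822 on the plus strand. TNRC6B had 754, 921 and 875 against 745, 685 and 680, with a log2 fold change of -0.27 (adjusted p = 0.00456), and it was called with any library left out. TNRC6A had 2068, 2117 and 2075 against 2273, 2288 and 2364 and rose by 0.15 on the log2 scale (adjusted p = 0.0149), a call lost without RBFOX1 replicate 3 (adjusted p = 0.0721).

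Paralogs with related functions were then compared within each library, which removes the scaling between libraries. Across 12 pairs of paralogs or partners, the log2 ratio did not overlap between the groups in 8. Single genes in the members' range of counts did not overlap in 68.1%, and no share was computed for other gene pairs. The pairs are not independent, as AGO1, AGO3 and AGO4 were each set against AGO2, and TNRC6B and TNRC6C against TNRC6A. They also use the same counts as the calls above. In each of the 8, the exact permutation test gave p = 0.1, the smallest value that 3 against 3 libraries allow (adjusted p = 0.15, two-sided), so that none could pass. The ratio of PAN3 to PAN2 changed most, by -0.56 on the log2 scale, from -0.10 ± 0.237 to -0.66 ± 0.0656 (SD, n = 3). DCP1B to DCP1A changed by -0.48, and TNRC6C and TNRC6B to TNRC6A by -0.47 and -0.41. AGO4, AGO3 and AGO1 to AGO2 changed by -0.38, -0.31 and -0.30, and CNOT8 to CNOT7 by -0.25. The pairs that overlapped were CNOT6L with CNOT6, XRN2 with XRN1 and both ZFP36 pairs, with differences between -0.19 and 0.16.

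The makeup of the families was compared per length. The summed Argonaute level was 15.2 ± 1.34 RPKM (SD, n = 3) in GFP cells and 13.7 ± 0.440 in RBFOX1 cells, and the 2 ranges overlapped. AGO2 made up 29.3% ± 0.901 of it in GFP cells and 34.4% ± 1.84 in RBFOX1 cells. AGO4, AGO1 and AGO2 were near each other in level in GFP cells, at 5.12, 4.45 and 4.45 RPKM, and AGO3 was lowest at 1.16. The order and shares depend on the exon lengths used. Before division by length, the mean normalised counts in GFP cells were 500 for AGO4, 822 for AGO1, 928 for AGO2 and 324 for AGO3. The summed TNRC6 level was 16.9 ± 0.596 and 17.4 ± 0.251 RPKM, with TNRC6A at 72.4% ± 1.79 in GFP and 78.0% ± 1.44 in RBFOX1 cells. DCP1A made up 70.2% ± 1.55 and 76.7% ± 0.916 of the DCP1 pair. XRN2 held 85.6% ± 0.403 and 85.9% ± 0.507 of the XRN pair.

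The RBFOX motif TGCATG was searched in the annotated 3′ UTR of each member, on the strand of the transcript. It occurred at least once in 19 of 44 members (43.2%), against 36.5% of 14049 tested protein-coding genes. Members had longer 3′ UTRs, with a median of 1738 nucleotides against 1298. In the first 2000 nucleotides the shares were 31.8% and 29.0%, and per kilobase the members had 0.282 copies against 0.322. Of the 19 members with a copy, 6 rose and 4 fell, with a median log2 fold change of 0.06. Of the 25 without, 12 rose and 3 fell, with a median of 0.15. Among all tested protein-coding genes, 35.9% of those with a copy and 27.1% of those without were higher, and 26.9% and 30.0% were lower.

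Members with several copies were found on both sides of 0. TNRC6B had 7, DCP2 and AGO1 had 5 each and AGO2 had 4, while DICER1, DCP1A, AGO4 and TNRC6C had 2 each. The copies in AGO4 and TNRC6C are printed as the counterpart of those in DCP2 and DICER1, since these genes had lower counts in RBFOX1 cells. The first copy in TNRC6C lies in a TG repeat. A match is a sequence description and not a binding site.
AGO4 chr1:35854298-35854327: aaacagatgtaaTGCATGtcacagtgacgg
AGO4 chr1:35856362-35856391: actgaatcgttaTGCATGtgtcaatcaatg
TNRC6C chr17:78105636-78105665: tgtgtgtgtgtgTGCATGtgtggcgcgtgc
TNRC6C chr17:78107527-78107556: gagctgtcccgcTGCATGcgttccctctgt

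**Figure D5:**
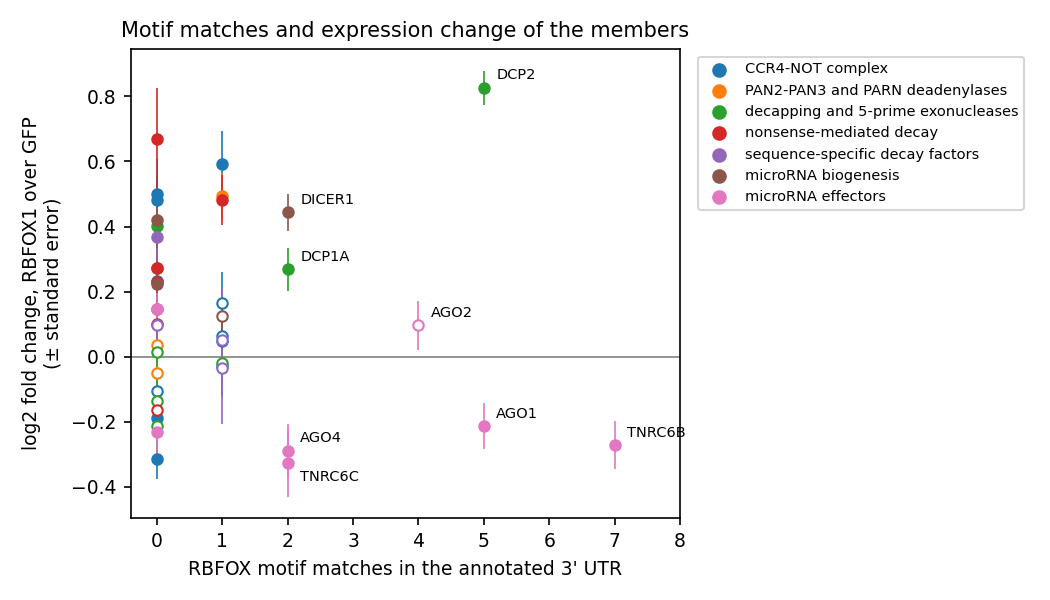
Log2 fold change of RBFOX1 over GFP with its standard error against the number of TGCATG matches in the 3′ UTR of each of the 44 members, coloured by role and filled where the adjusted p was under 0.05. Of the 8 members with 2 or more matches, DCP2, DICER1 and DCP1A rose, AGO1, AGO4, TNRC6B and TNRC6C fell, and AGO2 did not pass the threshold. Matches are counted over the whole 3′ UTR and not divided by its length, which differs between members.

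Other genes of the same pathways, 120 in a second list of which 119 were tested, were counted in the same way. Of these 48 were higher (40.3%), 22 lower (18.5%) and 49 not past the threshold, and the median log2 fold change was 0.13. Among all genes tested, 23.7% were higher and 22.9% lower, and in the members' range of counts 30.4% and 32.7%. Calls in either direction made up 58.8% of the other pathway genes tested, against 46.7% of all genes and 63.1% in that range. By 0.5 or more on the log2 scale, 17 other pathway genes were higher and 7 lower, or 20.2%, against 4 and 0 members (9.09%). The shares past this cut were larger over all genes, at 26.2%, and in the members' range of counts, at 28.9%. Decapping activators and scavengers had 10 higher and 2 lower of 17. Other genes of nonsense-mediated decay and the exon junction complex had 8 higher and 3 lower of 16. The RNA exosome, which degrades RNA from the 3′ end, and its cofactors had 6 higher and 3 lower of 21, none of them by 0.5 or more. Other sequence- or modification-reading factors had 12 higher and 6 lower of 25. The deadenylation adaptors and poly(A) proteins had 4 higher and 5 lower of 19, and other microRNA pathway genes 8 higher and 3 lower of 21 tested.

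Among them, 7 genes with a mean of at least 50 normalised counts changed by at least 1 on the log2 scale, more than any member. AJUBA, a LIM-domain protein that binds Argonautes, had the highest rise, from 610 ± 6.82 to 1627 ± 98.2 normalised counts (SD, n = 3), a log2 fold change of 1.42 (adjusted p = 1.018e-13). SAMD4A, a homolog of the fly deadenylation factor Smaug, rose by 1.13 on the log2 scale, NOCT, a relative of the CCR4 nucleases, by 1.07, and LSM3, a subunit of the LSM rings, by 1.01. TUT7, which adds uridines to mRNAs with short tails and to microRNA precursors, had the deepest fall, from 2547 ± 112 to 905 ± 35.2 normalised counts, a log2 fold change of -1.49 (adjusted p = 1.713e-14). IGF2BP3, which binds and stabilises mRNAs, had a log2 fold change of -1.20. NBDY, a microprotein that binds EDC4, had -1.02.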

How the data were processed

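Libraries were stranded, paired-end and made from rRNA-depleted total RNA of A172 cells. The authors aligned reads to GRCh38 with HISAT2 and deposited counts per Ensembl gene and library, made with HTSeq-count (intersection-strict). Genes received 52 to 61.9% of read pairs, and 6.89 to 9.35% were ambiguous. Classes without a gene entered neither library sizes nor tests. The table of the authors' DESeq2 comparison (means, fold changes, standard errors, statistics and p-values) was not used.

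Counts were normalised with TMM and tested with edgeR 4.0.16 (R 4.3.3; quasi-likelihood, two-sided, condition as the only term), with Benjamini-Hochberg adjustment over all genes reaching 10 counts in sum. On simulated data, with changed genes drawn above a minimum level, edgeR called 66 of 100 genes set to differ by 0.5 on the log2 scale. It called 95 of 100 set to differ by 1, with 10 false calls in 19546 genes tested. Only 100 genes of each size were changed there, whereas 9581 of 20536 genes were called in the data. The simulated rates therefore need not hold for this comparison. Smaller differences, like those of most members, were not simulated. DESeq2 1.42.0, limma-voom (limma 3.58.1), other scalings and filters, thinned counts, a replicate block, a fold minimum and the omission of each library were alternatives. Paralog ratios, with a pseudocount of 0.5, were compared by exact permutation (scipy 1.17.1). Exon lengths, coordinates and 3′ UTRs of canonical transcripts came from GENCODE 44, a later annotation than that of the counts, to which 98.1% of identifiers matched. RPKM used the merged exon length.

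The members and lists were chosen with earlier results of these data known. Full values are given for called members that differed by 0.5 or more on the log2 scale and, in each role, for the called member with the largest change. Other pathway genes are named where called with at least 1 on the log2 scale and a mean of at least 50 normalised counts. The Argonaute and TNRC6 genes, and others whose library values are printed, were added after their values were seen.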

Additional observations from a re-analysis of the deposited data

How the results depend on the processing

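The counts of members called, 18 higher and 7 lower, stayed within 1.5 times these values under the other scalings, filters and tools run, except for the members called lower with scaling by total counts alone, of which there were 4. With each library left out in turn, the members called lower ranged from 3 (without RBFOX1 replicate 2 or 3) to 8. A minimum difference of 0.5 on the log2 scale left 4 members higher and 0 lower, and 17 other pathway genes higher and 7 lower. DESeq2 called 20 members, all of them among the 25. The deviations of same-numbered libraries from their group means correlated with r of -0.171, 0.034 and -0.057. Not every library correlated best with its own number. These values gave no sign that the replicate numbers pair the samples, but with 3 libraries a group they cannot exclude it. With the replicate number as a block, 17 members were higher and 6 lower, EDC3 and AGO3 losing their calls. The cause of these differences was not tested. With 7433414 counts in the shallowest library and 3 libraries a group, small changes of scarce members such as ZFP36 could not be measured precisely, and the paralog ratios could not pass any threshold.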
